A study of Rattus norvegicus with 8 samples.

Results

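The genes of 4 growth factor systems, fibroblast growth factors (FGFs), platelet-derived growth factors (PDGFs), vascular endothelial growth factors (VEGFs) and insulin-like growth factors (IGFs), were examined in sciatic nerve allografts and unoperated nerves. Genes were taken by their symbols alone: FGF ligands and Fgfr1 to Fgfr4, the 4 PDGF chains and Pdgfra and Pdgfrb, Vegfa to Vegfd and the receptors Flt1, Kdr and Flt4, and Igf1 and Igf2 with their receptors and the binding proteins Igfbp1 to Igfbp7. Of 50 genes with such a symbol, 48 had a read in at least 1 library, out of 22798 such genes in the whole data set of 32545. They comprise 24 genes of the FGF system (20 ligands), 6 of the PDGF system, 7 of the VEGF system and 11 of the IGF system, with 30 ligands and 11 receptors in all.

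Coding RNA was sequenced from 3 polyethylene glycol (PEG)-fused peripheral nerve allografts (PEG-fused PNAs), 3 negative control allografts (NC PNAs) and 2 unoperated sciatic nerves (Unop nerves), each from a different female, outbred Sprague Dawley rat between 3 and 6 months of age. Both kinds of PNA replaced a cut-out segment of host sciatic nerve, came from another rat that was not tissue-matched, and were given without immune suppression. They were washed with hypotonic Plasmalyte A and methylene blue, were sutured through the epineurium (neurorrhaphy), and were rinsed with a solution containing calcium. PEG, which joins the membranes of cut axon ends held against each other, was applied to PEG-fused PNAs alone, and PNAs were excised 14 days postoperatively (PO). Nerve segments were sequenced whole, so fewer cells of a type and less RNA per cell cannot be told apart, and a PNA may hold cells of the donor and of the host.

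Ligands of these systems are, with a few exceptions, secreted proteins that bind receptor tyrosine kinases on nearby cells and drive survival, division and migration. PDGFs act mainly on fibroblasts and on the pericytes of vessel walls, VEGFs on endothelium, and FGFs and IGFs on many cell types including Schwann cells and neurons. IGF binding proteins hold IGFs in the fluid around cells and set how much of them reaches the receptor. After a nerve is cut, Schwann cells, fibroblasts, macrophages and vessels of the distal stump rebuild the tissue along which axons regrow, and members of all these systems are known to take part.

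Values are normalized read counts, that is, reads per gene after the authors' correction for library size. Libraries held between 32472925 and 39959620 reads on genes, so that counting error is small for most members. Differences were tested with limma on log2(normalized read count + 1) over the 16478 genes with a value of 10 or more in 2 or more libraries. A gene is called higher or lower where the adjusted p (Benjamini-Hochberg over all tested genes) is under 0.05. Log2 fold changes below are on this scale, which understates the change of genes with few reads. Of the 48 members, 43 were tested, and Fgf3, Fgf6, Fgf8, Fgf17 and Igfbp1 had too few reads. The highest normalized read count among these 5 genes was 3.74, that of Fgf8 in PEG 2.

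Between PEG-fused and NC PNAs, 14 of the 43 tested members were higher in PEG-fused PNAs (32.6%), where 15.0% of all tested genes were, and 4 were lower (9.3%), where 13.9% of all tested genes were. The median log2 fold change was 0.35 over the members and 0.0017 over all tested genes. The study's definition of a differentially expressed gene (DEG) also asks for a log2 fold change over 1, there with DESeq2 and here with limma. By it, 4 members were higher, Fgf5, Fgf14, Fgfr2 and Igfbp5, against 4.41% of all tested genes. Lower were 2 members, Fgf13 and Fgf23, against 7.14%. Every PEG-fused PNA was above every NC PNA in 18 members (25.6% of all tested genes) and below in 4 members (23.3%). The 14 higher members were spread over the systems, with 5 of 20 tested in the FGF, 3 of 6 in the PDGF, 1 of 7 in the VEGF and 5 of 10 in the IGF system. The 4 lower members were Fgf13, Fgf23, Vegfa and Kdr. Without PEG 3, 9 members were called higher and 2 lower, and without PEG 2, 10 were called higher and 2 lower.

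**Figure D1:**
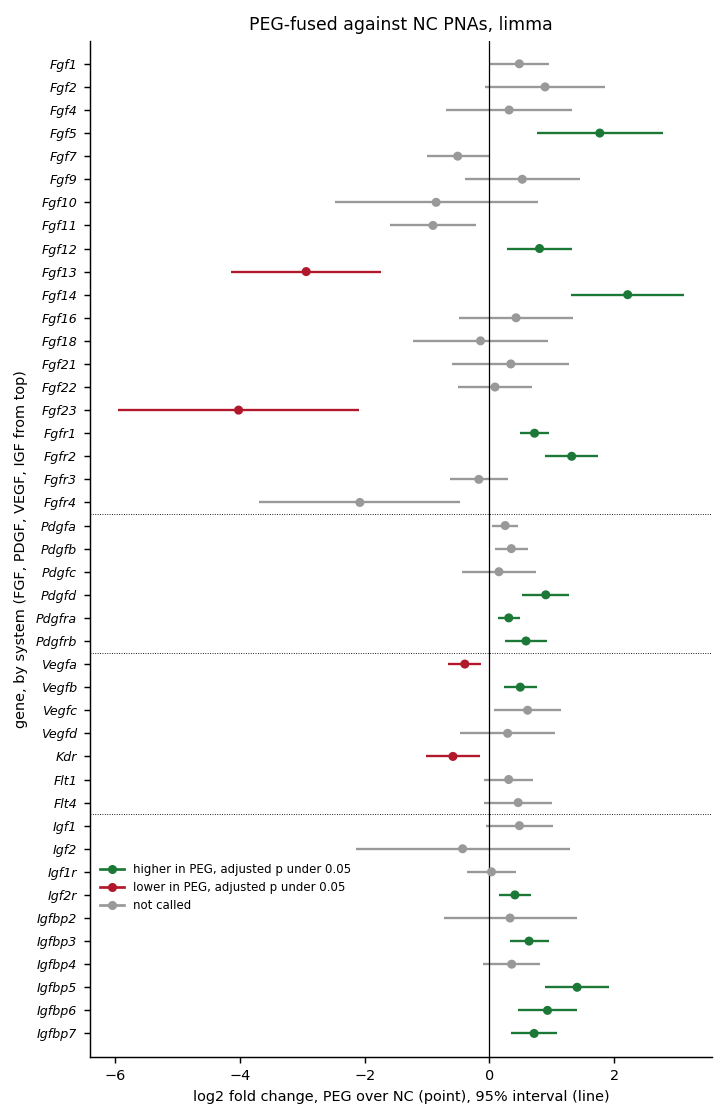
Log2 fold change of PEG-fused over NC PNAs (x axis) for each of the 43 tested members (y axis), with 95% intervals from limma as lines; green points are higher and red points lower at an adjusted p under 0.05, grey points were not called. Fgf23 (-4.02) and Fgf13 (-2.94) lie farthest to the left and Fgf14 (2.22) and Fgf5 (1.77) farthest to the right.

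Against Unop nerves, 13 members were higher in PEG-fused PNAs (29.1% of all tested genes were) and 14 were lower (28.6% of all tested genes). In NC PNAs, 9 members were higher than in Unop nerves (32.2% of all tested genes) and 18 were lower (32.3% of all tested genes). These 2 comparisons share the Unop nerves, and the lower members include Fgf4, which passed the filter on low values through the Unop nerves alone. Median log2 fold changes of the members were -0.33 and -0.45, against 0.013 and 0.022 over all tested genes, and placing Fgf4, which had no read in NC PNAs, at its lower bound leaves the second median as it is. Of the FGF members, PEG-fused PNAs had 11 of 20 lower and 3 higher, whereas 6 of 10 IGF members were higher and 1 was lower. Without Unop 2, 7 members in place of 13 were called higher in PEG-fused PNAs.

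**Figure D2:**
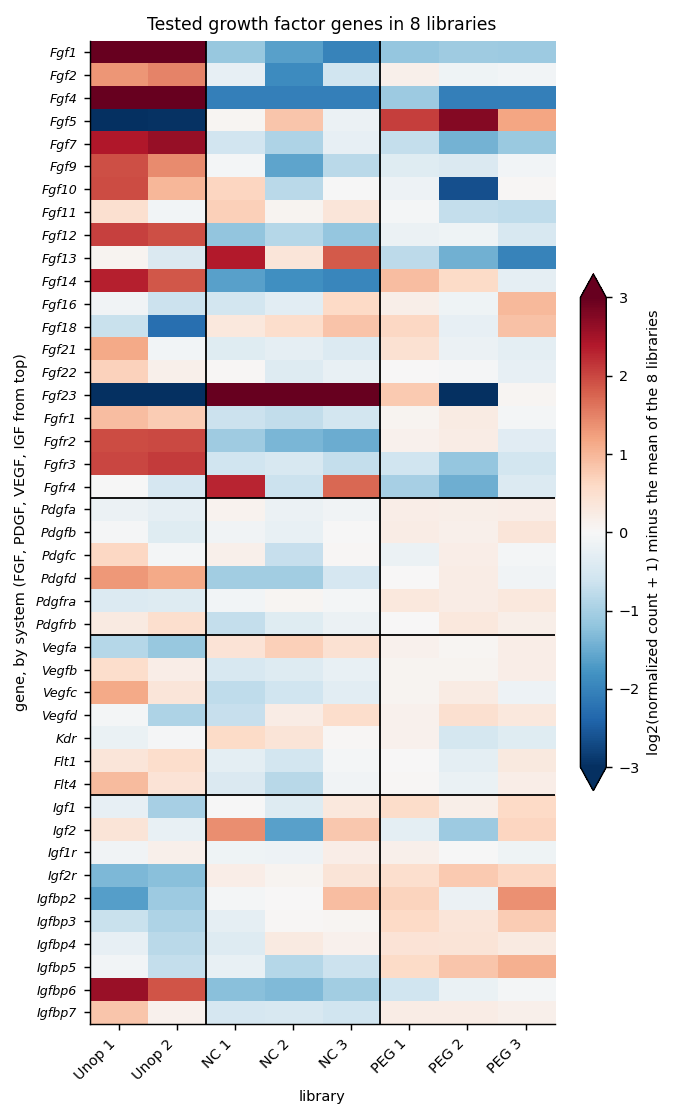
Log2(normalized read count + 1) of each tested member (y axis, grouped by system) in each library (x axis) minus the mean of the gene over the 8 libraries, with red above and blue below that mean and the colour scale ending at 3 in either direction. Fgf1, Fgf4 and Fgf7 were highest in both Unop nerves, and Fgf5 and Fgf23 were lowest there.

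Read together, the 3 comparisons sort the members into several patterns. The largest pattern with a call held 7 members, Fgf1, Fgf2, Fgf4, Fgf7, Fgf9, Fgfr3 and Vegfc. They were lower than in Unop nerves in both kinds of PNA and not called between the PNAs. The shares of all tested genes with these patterns were not counted. Fgf5, Pdgfra, Igf2r and Igfbp3 were higher in NC PNAs than in Unop nerves and higher again in PEG-fused PNAs. Fgf12, Fgf14, Fgfr1, Fgfr2, Pdgfd and Igfbp6 were lower than in Unop nerves in both kinds of PNA, and PEG-fused PNAs lay above NC PNAs, between them and Unop nerves. Pdgfrb, Vegfb and Igfbp7 were lower than in Unop nerves in NC PNAs and were not called against Unop nerves in PEG-fused PNAs. For Vegfb and Igfbp7, the value of PEG-fused PNAs over Unop nerves depended on which Unop nerve was kept. Igfbp5 was higher in PEG-fused PNAs than in either other group. Fgf23 and Vegfa were higher than in Unop nerves in both kinds of PNA and highest in NC PNAs. Fgf13 was called higher in NC PNAs than in either other group, and Kdr was called only between the PNAs. Not called between the PNAs were also Fgf18 and Igfbp2, which were higher than in Unop nerves in both kinds of PNA. The same holds for Pdgfa, Pdgfb, Igf1 and Igfbp4 (higher in PEG-fused PNAs only), Fgf10 (lower in PEG-fused PNAs only), and Flt1 and Flt4 (lower in NC PNAs only). No call was made in any of the 3 comparisons for 9 members, Fgf11, Fgf16, Fgf21, Fgf22, Fgfr4, Pdgfc, Vegfd, Igf2 and Igf1r.

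Promoter sequence is given for 3 members, chosen after their values were seen: Fgf4, whose transcripts were nearly gone from both kinds of PNA, Fgf5, which rose in both, and Igfbp5, the binding protein with the largest difference between PEG-fused and NC PNAs. Each run is the 150 bases before the transcription start in RefSeq, 5′ to 3′ on the strand of the gene. Capitals mark a GC box (GGGCGG, or CCGCCC on the other strand) or a TATA box (TATAAA), short motifs known from many core promoters, searched on both strands.
Fgf4 (GRCr8, chr1:209453079-209453228, plus strand): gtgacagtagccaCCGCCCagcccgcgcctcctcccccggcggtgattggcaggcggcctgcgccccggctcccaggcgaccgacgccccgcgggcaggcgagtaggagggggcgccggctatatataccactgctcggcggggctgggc
Fgf5 (GRCr8, chr14:11650244-11650393, minus strand): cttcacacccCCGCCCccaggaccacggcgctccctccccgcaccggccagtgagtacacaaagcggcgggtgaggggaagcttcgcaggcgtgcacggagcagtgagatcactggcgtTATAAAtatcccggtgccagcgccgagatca
Igfbp5 (GRCr8, chr9:81914188-81914337, minus strand): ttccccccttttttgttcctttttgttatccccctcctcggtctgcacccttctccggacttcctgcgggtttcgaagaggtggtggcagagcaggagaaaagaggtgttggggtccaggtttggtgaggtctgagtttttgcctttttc
Fgf5 held a TATA box starting 31 bases before the start and 1 GC box, Fgf4 held 1 GC box, and neither motif was found in these letters of Igfbp5. Only the exact letters TATAAA were searched, so variants such as the run tatatata in Fgf4 were not marked or counted. Promoters of 44 of the 48 members were in the RefSeq table (GRCr8), as windows of 300 bases from 250 before to 50 after the start. A GC box was found in 27 of the 44 (61.4%) and in 34.9% of all 27457 promoters, and a TATA box in 7 of the 44 (15.9%) and in 14.3% of all. The AP-1 motif TGANTCA was found in 2 of the 44 (4.55%) against 7.33% of all promoters, and ACGTG, the core of hypoxia response elements, in 10 (22.7%) against 19.7%. These counts describe letters in a window and not bound sites.

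Several FGF ligands were far lower in both kinds of PNA than in Unop nerves. Fgf1, or acidic FGF, a ligand without a secretion signal that binds all FGF receptors, had normalized read counts of 412, 436 and 428 in PEG-fused PNAs, 417, 297 and 228 in NC PNAs and 13248 and 17001 in Unop nerves. Every PNA lay below both Unop nerves, and the means were 35.6-fold higher in Unop nerves than in PEG-fused PNAs and 48.2-fold higher than in NC PNAs. Log2 fold changes were -5.14, SE 0.23, adjusted p = 1.58e-06 in PEG-fused PNAs and -5.62, SE 0.23, adjusted p = 8.08e-07 in NC PNAs. PEG-fused and NC PNAs overlapped and were not called different (0.48, SE 0.20, adjusted p = 0.114), except without NC 1 (adjusted p = 0.0136).

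Fgf4, best known as a ligand of the early embryo and limb bud, was read 172 and 189 times in the Unop nerves (normalized read counts 185 and 236), 1 time in PEG 1, and not at all in the other 5 PNAs. With a floor of 3 reads per library, Fgf4 was at least 70.2-fold lower in NC PNAs than in Unop nerves. For PEG-fused PNAs, the single read gives a ratio of 670.3 with a 95% counting interval from 119.5 to 26550.0, which leaves out the spread between rats. The adjusted p of limma was 8.01e-06 for PEG-fused PNAs and 4.1e-06 for NC PNAs against Unop nerves.

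Fgf7, or keratinocyte growth factor, which fibroblasts secrete toward epithelium, had normalized read counts of 290.1, 178 and 220.4 in PEG-fused PNAs, 322, 254 and 402 in NC PNAs and 2526 and 2940.5 in Unop nerves. Both kinds of PNA were below both Unop nerves, with log2 fold changes of -3.59, SE 0.24, adjusted p = 8.89e-06 for PEG-fused PNAs and -3.08, SE 0.24, adjusted p = 1.26e-05 for NC PNAs. Fgf10, its close relative, had counts of 99.2, 16.8 and 114 in PEG-fused PNAs, 172, 62.4 and 109.005 in NC PNAs and 433 and 223 in Unop nerves, with PEG 2 far below the other libraries. It was called lower in PEG-fused PNAs (-2.40, SE 0.79, adjusted p = 0.0298) and not in NC PNAs (-1.55, SE 0.79, adjusted p = 0.119). The NC PNAs were also called lower by DESeq2, with the 2 groups alone and with a replicate block (adjusted p = 0.0393, 0.0332 and 0.017). The difference between the PNAs was not called (-0.85, SE 0.71, adjusted p = 0.399). The call of PEG-fused PNAs was lost without Unop 1 or Unop 2 (adjusted p = 0.179 and 0.0616), and the log2 fold change was -1.54 without PEG 2.

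Fgf2, or basic FGF, a mitogen of Schwann cells and fibroblasts, reached 29.7, 24.3 and 25.3 in PEG-fused PNAs, 22.3, 6.45 and 17.4 in NC PNAs and 68.7 and 76.3 in Unop nerves. It was lower than in Unop nerves in NC PNAs (-2.32, SE 0.47, adjusted p = 0.00261) and in PEG-fused PNAs (-1.43, SE 0.47, adjusted p = 0.0295), and no PNA overlapped the Unop nerves. The PEG-fused call was lost without PEG 1, PEG 2, PEG 3, Unop 1 or Unop 2 (adjusted p = 0.0534, 0.0708, 0.0694, 0.0913 and 0.119). Fgf9, first purified as a factor that activates glia, had 21.3, 20.6 and 26.3 in PEG-fused PNAs, 26.8, 8.61 and 15.4 in NC PNAs and 109.467 and 76.3 in Unop nerves, again with all PNAs below the Unop nerves. Its log2 fold change was -1.97, SE 0.45, adjusted p = 0.00549 for PEG-fused PNAs and -2.50, SE 0.45, adjusted p = 0.00134 for NC PNAs.

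Fgf18, a ligand known from cartilage and bone, went the other way. Its normalized read counts were 43.6, 23.4 and 52.5 in PEG-fused PNAs, 34.9, 40.9 and 51.1 in NC PNAs and 17.2 and 5 in Unop nerves, with every PNA above both Unop nerves. Fgf18 was higher than in Unop nerves in PEG-fused PNAs (1.89, SE 0.53, adjusted p = 0.0142) and in NC PNAs (2.03, SE 0.53, adjusted p = 0.00898). It did not pass the test between the PNAs (-0.14, SE 0.47, adjusted p = 0.847). Without Unop 2, the lower of the Unop nerves, both calls were lost (1.09, adjusted p = 0.108, and 1.24, adjusted p = 0.0706). The remaining secreted ligands, Fgf16, Fgf21 and Fgf22, were low in every library, with normalized read counts from 7.72 (Fgf21 in NC 3) to 93.8 (Fgf16 in PEG 3).

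Fgf5, a ligand best known for ending the growth phase of hair and also made by skeletal muscle, was nearly unread in Unop nerves and highest in PEG-fused PNAs. Normalized read counts were 365, 578 and 196 in PEG-fused PNAs, 89.4, 152 and 75.2 in NC PNAs and 5.37 and 10.01 in Unop nerves, so the 3 groups did not overlap. Fgf5 was 3.6-fold higher by the means in PEG-fused than in NC PNAs (379.7 ± 191 against 105 ± 40.7, SD, n = 3 each), a log2 fold change of 1.77, SE 0.44, adjusted p = 0.0191. Against Unop nerves it rose by 5.37 on the log2 scale in PEG-fused PNAs and by 3.60 in NC PNAs (adjusted p = 4.06e-05 and 0.000277). The call between the PNAs was lost without PEG 1, PEG 2 or NC 3 (adjusted p = 0.0575, 0.0689 and 0.0615), with a log2 fold change between 1.40 and 1.73 in those 3 fits.

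Fgf23, an endocrine FGF that bone cells release to lower blood phosphate, was lower in PEG-fused than in NC PNAs and nearly unread in Unop nerves. Normalized read counts were 51.9, 2.8 and 31.0 in PEG-fused PNAs, 253, 353 and 307 in NC PNAs and 1.07 and 1.25 in Unop nerves. Every NC PNA lay above every PEG-fused PNA, of which PEG 2 was far below the other two, and both Unop nerves held 1 read each. Fgf23 was 10.7-fold higher by the means in NC than in PEG-fused PNAs (log2 fold change, PEG-fused over NC, -4.02, SE 0.84, adjusted p = 0.00974). Without PEG 2 the log2 fold change was -2.88 (adjusted p = 0.00325). From the 2 reads of the Unop nerves, the ratio to Unop nerves was 24.8 in PEG-fused PNAs (95% counting interval 6.67 to 208) and 260.7 in NC PNAs (71.9 to 2156). These intervals pool the reads of a group and leave out the spread between rats. The co-receptor Kl, which Fgf23 needs for its known action, was too low to be tested (0, 0.935 and 0 in PEG-fused PNAs, 2.68, 3.23 and 0 in NC PNAs and 11.8 and 6.25 in Unop nerves). The difference of PEG-fused PNAs from Unop nerves (adjusted p = 0.021) was not called without PEG 1, PEG 3, Unop 1 or Unop 2 (adjusted p = 0.0557, 0.0636, 0.0947 and 0.0843).

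**Figure D3:**
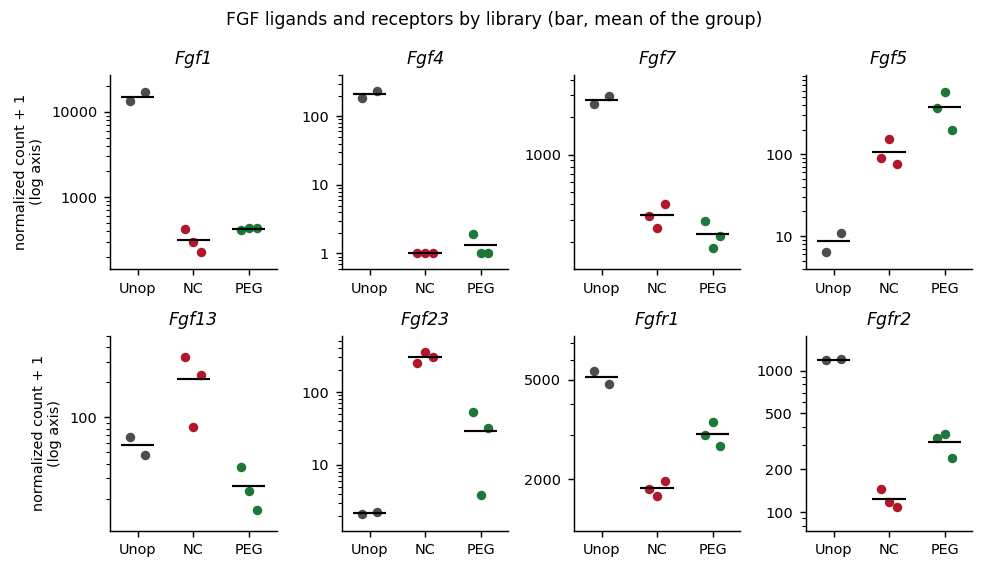
Normalized read count + 1 (y axis, log scale) of 6 FGF ligands and 2 FGF receptors in each library, grouped as Unop nerves, NC PNAs and PEG-fused PNAs (x axis), with a bar at the mean of each group. Fgf1, Fgf4 and Fgf7 fell in both kinds of PNA, Fgf5 rose in both, and Fgf23 was highest in the 3 NC PNAs.

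Fgf11 to Fgf14 encode proteins that stay inside the cell, where they bind voltage-gated sodium channels of neurons and muscle. Fgf14 had normalized read counts of 20.4, 15.9 and 8.44 in PEG-fused PNAs, 2.68, 2.15 and 1.93 in NC PNAs and 55.8 and 40.0 in Unop nerves, and the groups did not overlap. It was higher in PEG-fused than in NC PNAs (2.22, SE 0.39, adjusted p = 0.00508) at few reads. It was lower than in Unop nerves in both (log2 fold change -1.68, adjusted p = 0.0109, and -3.90, adjusted p = 9.49e-05). The call against Unop nerves in PEG-fused PNAs was lost without Unop 1 (adjusted p = 0.0705), and the value between the PNAs was 1.12 with a pseudocount of 8.

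Fgf12 had normalized read counts of 35.2, 36.5 and 28.1 in PEG-fused PNAs, 17.0, 21.5 and 17.4 in NC PNAs and 168 and 154 in Unop nerves and the same order of the 3 groups, again without overlap. It was higher in PEG-fused than in NC PNAs (0.80, SE 0.23, adjusted p = 0.0327). The call was lost without PEG 1, PEG 2, PEG 3, NC 1 or NC 3 (adjusted p = 0.0949, 0.109, 0.05, 0.0745 and 0.0806). It was also lost without a filter on low values (adjusted p = 0.0631) and with a replicate block (adjusted p = 0.0597). Against Unop nerves Fgf12 fell by 2.25 on the log2 scale in PEG-fused PNAs and by 3.05 in NC PNAs (adjusted p = 0.000138 and 1.75e-05). Fgf11, with counts from 25.3 to 72.4 over the 8 libraries, lay lower in every PEG-fused than in every NC PNA and was not called (-0.91, SE 0.30, adjusted p = 0.0554, PEG-fused over NC). It was called lower with a replicate block, with a pseudocount of 8 and without PEG 1 (adjusted p = 0.038, 0.0497 and 0.0435).

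Fgf13 was called lower in PEG-fused than in NC PNAs. Its normalized read counts were 36.1, 22.4 and 15.0 in PEG-fused PNAs, 329.7, 81.8 and 229 in NC PNAs and 66.5 and 46.3 in Unop nerves. All NC PNAs lay above both Unop nerves and all PEG-fused PNAs lay below them. The log2 fold change was -2.94, SE 0.52, adjusted p = 0.00509 between the PNAs. It was 1.71, SE 0.59, adjusted p = 0.0311 for NC PNAs against Unop nerves and -1.23, SE 0.59, adjusted p = 0.104 for PEG-fused PNAs against Unop nerves, of which the last did not pass and was called with the 2 groups alone (adjusted p = 0.0429). The call of NC PNAs against Unop nerves was lost without NC 1, NC 3, Unop 1 or Unop 2 (adjusted p = 0.0812, 0.0835, 0.0725 and 0.16). Among the NC PNAs, Fgf13 was highest in NC 1 and NC 3, in which markers of skeletal muscle fibres were high.

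Among the FGF receptors, Fgfr1 and Fgfr2 were lower in PNAs than in Unop nerves and higher in PEG-fused than in NC PNAs. Fgfr1, the receptor of broadest expression in connective tissue and glia, had normalized read counts of 3002, 3377 and 2721 in PEG-fused PNAs, 1827, 1708 and 1962 in NC PNAs and 5438 and 4825 in Unop nerves. The 3 groups did not overlap, and the log2 fold change of PEG-fused over NC PNAs was 0.72, SE 0.10, adjusted p = 0.00216. It was -0.76, SE 0.12, adjusted p = 0.000673 for PEG-fused PNAs over Unop nerves and -1.49, SE 0.12, adjusted p = 1.18e-05 for NC PNAs over Unop nerves. Fgfr2, whose splice forms serve epithelium and mesenchyme, had 333, 358 and 239 in PEG-fused PNAs, 144, 117 and 107 in NC PNAs and 1181 and 1202 in Unop nerves, again without overlap. Its log2 fold change was 1.32, SE 0.18, adjusted p = 0.00198 between the PNAs, -1.96, SE 0.21, adjusted p = 8.53e-05 for PEG-fused PNAs and -3.28, SE 0.21, adjusted p = 3.87e-06 for NC PNAs against Unop nerves. Fgfr2 kept its call between the PNAs in every alternative tried. Fgfr1 kept it in all but the limit of 1 on the log2 fold change.

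Fgfr3, known for restraining bone growth, had normalized read counts of 71.4, 48.6 and 74.1 in PEG-fused PNAs, 71.5, 77.5 and 66.6 in NC PNAs and 443 and 468 in Unop nerves. It fell in both kinds of PNA (-2.82, SE 0.23, adjusted p = 2.15e-05, and -2.65, SE 0.23, adjusted p = 2.02e-05). The PNAs overlapped and were not called different (95% interval of the log2 fold change -0.64 to 0.30). Fgfr4, a receptor of liver and of regenerating muscle, had normalized read counts of 15.8, 11.2 and 24.4 in PEG-fused PNAs, 164, 20.4 and 110.0 in NC PNAs and 32.2 and 22.5 in Unop nerves. It was high in NC 1 and NC 3 alone, and no comparison was called (-2.08, SE 0.70, adjusted p = 0.057 between the PNAs). That comparison was called by edgeR (adjusted p = 0.0275), by DESeq2 (adjusted p = 0.00133), with a replicate block (adjusted p = 0.0356) and without NC 2 (log2 fold change -2.96, adjusted p = 0.00284). NC PNAs were called higher than Unop nerves by DESeq2 (1.84, adjusted p = 0.0262) and without NC 2 (2.27, adjusted p = 0.00248).

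Of 25 other tested genes of FGF signalling (feedback inhibitors, targets, co-receptors and heparan sulfate enzymes), 10 were higher and 2 were lower in PEG-fused than in NC PNAs, with a median log2 fold change of 0.37. Against Unop nerves, 9 were higher and 5 lower in PEG-fused PNAs, and 5 were higher and 10 lower in NC PNAs. Shares over all tested genes were 15.0% higher and 13.9% lower between the PNAs. They were 29.1% and 28.6% for PEG-fused PNAs and 32.2% and 32.3% for NC PNAs against Unop nerves. DEGs were Spry4, an inhibitor induced by FGF signalling (1.04, SE 0.11, adjusted p = 0.000664), and the ETS factors Etv1 (1.09, adjusted p = 0.00219) and Etv4 (1.07, adjusted p = 0.00234), which are FGF target genes. Others were the heparan sulfate proteoglycan Gpc1 (1.11, adjusted p = 0.00281), and the adhesion proteins Flrt2 (1.06, adjusted p = 0.0248) and Flrt3 (1.26, adjusted p = 0.000906). Spry4 was 626 ± 36.5 in PEG-fused PNAs and 303 ± 4.26 in NC PNAs (SD, n = 3 each), with 996 ± 121 in Unop nerves (n = 2). Flrt2 lost its call without PEG 2 or NC 1 (adjusted p = 0.0643 and 0.0591). The inhibitors Spry2 and Spred3 were higher without being DEGs (0.67, adjusted p = 0.0104, and 0.82, adjusted p = 0.00734). The targets Dusp6, Etv5 and Spry1 were not called, with Dusp6 at -0.039 (adjusted p = 0.749), Etv5 at 0.16 (adjusted p = 0.235) and Spry1 at 0.068 (adjusted p = 0.723).

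In the PDGF system, both receptors and 1 ligand were higher in PEG-fused than in NC PNAs, and none of the 6 genes was called lower. Pdgfd, a ligand of the beta receptor, had normalized read counts of 786, 907 and 720.4 in PEG-fused PNAs, 377, 377 and 551 in NC PNAs and 1897 and 1716 in Unop nerves. The 3 groups did not overlap, and PEG-fused PNAs lay between NC PNAs and Unop nerves (0.90, SE 0.17, adjusted p = 0.00567, PEG-fused over NC). Against Unop nerves Pdgfd fell by 1.17 on the log2 scale in PEG-fused PNAs (adjusted p = 0.000826) and by 2.07 in NC PNAs (adjusted p = 2.42e-05). Pdgfa, Pdgfb and Pdgfc, the other ligands, were not called between the PNAs, with log2 fold changes of 0.25 (adjusted p = 0.074), 0.35 (adjusted p = 0.0548) and 0.15 (adjusted p = 0.695). Pdgfb was called higher by edgeR, by DESeq2, with the 2 groups alone and with a replicate block (adjusted p = 0.0487, 0.0348, 0.0354 and 0.0459), and Pdgfa without NC 1 (adjusted p = 0.0226). Against Unop nerves, Pdgfa and Pdgfb were higher in PEG-fused PNAs (0.41 and 0.44, adjusted p = 0.00888 and 0.0186). These calls were lost without Unop 2 (adjusted p = 0.0501 and 0.122) and, for Pdgfb, without PEG 3 (adjusted p = 0.065).

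Pdgfra, the receptor by which fibroblasts and their precursors answer PDGF, had normalized read counts of 10407, 9702 and 10289.7 in PEG-fused PNAs, 7860.2, 8678 and 7989 in NC PNAs and 6306 and 6396 in Unop nerves. The groups did not overlap, and the difference of PEG-fused from NC PNAs was small (0.31, SE 0.077, adjusted p = 0.0195). It was 0.67, SE 0.086, adjusted p = 0.000264 for PEG-fused PNAs and 0.36, SE 0.086, adjusted p = 0.00601 for NC PNAs over Unop nerves. The call between the PNAs was lost without PEG 1, PEG 3 or NC 3 (adjusted p = 0.0686, 0.0734 and 0.0583). Pdgfrb, the receptor of pericytes and smooth muscle, had normalized read counts of 3752, 4569.7 and 4144 in PEG-fused PNAs, 2248, 2869 and 3252 in NC PNAs and 4418 and 5277 in Unop nerves. All NC PNAs were below the other 5 libraries, while PEG-fused PNAs and Unop nerves overlapped. Pdgfrb was 0.59, SE 0.15, adjusted p = 0.0201 for PEG-fused over NC PNAs and -0.81, SE 0.16, adjusted p = 0.00268 for NC PNAs over Unop nerves. The difference of PEG-fused PNAs from Unop nerves was not called (95% interval -0.60 to 0.16). Its call between the PNAs was lost without PEG 2 or PEG 3 (adjusted p = 0.078 and 0.0593).

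Of the 10 markers of fibroblasts, 3 were higher in PEG-fused than in NC PNAs (15.0% of all tested genes) and none was called lower (13.9%). Their summed normalized read count was 615030.0 to 897534 in PEG-fused PNAs, 349310.0 to 532607 in NC PNAs and 395069 to 536784 in Unop nerves. Of the 10 markers of pericytes and smooth muscle, 5 were higher and 1, Des, which skeletal muscle also expresses, was lower. Their sum was 22746 to 27898 in PEG-fused PNAs, 18738 to 45766 in NC PNAs and 46554 to 56346 in Unop nerves. Leaving out Des, a choice made after the values were seen, gave sums of 19276 to 23218, 11288 to 16029 and 43648 to 51813. Every PEG-fused PNA was then above every NC PNA. Des itself was 3469 to 4680 in PEG-fused PNAs and 33528, 7450 and 21082 in NC PNAs. NC 2, in which muscle fibre markers were not high, thus also lay above every PEG-fused PNA in Des. Against Unop nerves, fibroblast markers were higher in 4 and lower in 3 in PEG-fused PNAs (29.1% and 28.6% of all tested genes). They were lower in 4 in NC PNAs (32.3% of all tested genes were lower and 32.2% higher). Pericyte and smooth muscle markers were higher in 2 and lower in 5 in PEG-fused PNAs and higher in 1 and lower in 6 in NC PNAs. Their part in the values of Pdgfra and Pdgfrb was not tested. Of 12 other tested genes of PDGF signalling, 4 were higher and 2 lower in PEG-fused than in NC PNAs, with a median of 0.044. The shares over all tested genes are those given for the fibroblast markers. Against Unop nerves, 8 of the 12 were higher and 2 lower in PEG-fused PNAs, and 8 were higher and 2 lower in NC PNAs, where Plat was called in the former comparison and not in the latter and Grb2 the reverse. DEGs were Plat, the tissue plasminogen activator that cleaves latent PDGF-CC (1.21, SE 0.12, adjusted p = 0.000623), the receptor-like protein Pdgfrl (1.02, adjusted p = 0.0248) and the AP-1 subunit Fosl1 (1.49, adjusted p = 0.00233). Pdgfrl lost its call without PEG 2, PEG 3, NC 1 or NC 2 (adjusted p = 0.0674, 0.0838, 0.0603 and 0.0516).

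Of the VEGF system, Vegfa and its receptor Kdr were lower and Vegfb was higher in PEG-fused than in NC PNAs. Vegfa, the main ligand that drives vessel growth and that low oxygen induces, had normalized read counts of 2836, 2669 and 2981 in PEG-fused PNAs, 3418, 4259 and 3522 in NC PNAs and 1433 and 1173 in Unop nerves. The 3 groups did not overlap. Vegfa rose above Unop nerves by 1.12 on the log2 scale in PEG-fused PNAs (adjusted p = 0.000139) and by 1.52 in NC PNAs (adjusted p = 1.81e-05). It was lower in PEG-fused than in NC PNAs by a small amount (-0.39, SE 0.11, adjusted p = 0.0349). The call was lost without PEG 1, PEG 2, PEG 3, NC 2 or NC 3 (adjusted p = 0.0845, 0.119, 0.0662, 0.091 and 0.0573) and with a replicate block (adjusted p = 0.0739).

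Vegfb, a ligand of Flt1, had normalized read counts of 1037, 1029 and 1129 in PEG-fused PNAs, 697, 743 and 831 in NC PNAs and 1408 and 1124 in Unop nerves. NC PNAs lay below the other libraries (0.49, SE 0.11, adjusted p = 0.0144 for PEG-fused over NC PNAs, and -0.74, SE 0.13, adjusted p = 0.00111 for NC PNAs over Unop nerves). The call between the PNAs was lost without PEG 3 (adjusted p = 0.0573). PEG-fused PNAs were not called against Unop nerves (-0.24, adjusted p = 0.139). With single libraries left out, the value ranged from -0.40 (without Unop 2) to -0.079. Vegfc and Vegfd, the ligands of Flt4, were not called between the PNAs (0.61 and 0.29, adjusted p = 0.0843 and 0.543), apart from Vegfc with the 2 groups alone (adjusted p = 0.0476). Vegfc was lower than in Unop nerves in NC PNAs (-1.31, SE 0.26, adjusted p = 0.00239) and in PEG-fused PNAs (-0.70, SE 0.26, adjusted p = 0.0477). The latter call was lost without PEG 1, PEG 2, PEG 3 or Unop 1 (adjusted p = 0.0932, 0.058, 0.131 and 0.353), with a log2 fold change of -0.31 without Unop 1. It was also lost with TMM scaling, without the filter, with the 2 groups alone and with a replicate block (adjusted p = 0.0539, 0.0585, 0.0565 and 0.0966).

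Kdr, the receptor through which VEGF-A stimulates endothelium, had normalized read counts of 2334, 1497 and 1678 in PEG-fused PNAs, 3219, 2799 and 2198 in NC PNAs and 1874 and 2097 in Unop nerves. PEG-fused and NC PNAs overlapped, since PEG 1 lay above NC 3. The difference was at the threshold (-0.59, SE 0.19, adjusted p = 0.0488) and was lost with edgeR (adjusted p = 0.0583), with TMM scaling (adjusted p = 0.053), without the filter (adjusted p = 0.0594) and with the 2 groups alone (adjusted p = 0.071). It was also lost without PEG 2, PEG 3, NC 1 or NC 2 (adjusted p = 0.162, 0.136, 0.123 and 0.107). Flt1, a receptor that mostly traps VEGF, had normalized read counts of 1116, 907 and 1371 in PEG-fused PNAs, 911, 756 and 1058 in NC PNAs and 1433 and 1599.7 in Unop nerves. Flt4, the receptor of lymphatic endothelium, had normalized read counts of 190.0, 162 and 213 in PEG-fused PNAs, 138, 104 and 174 in NC PNAs and 364 and 248 in Unop nerves. Both were lower in NC PNAs than in Unop nerves (-0.75, SE 0.19, adjusted p = 0.00884, and -1.14, SE 0.26, adjusted p = 0.00512). Flt1 lost this call without Unop 2 (adjusted p = 0.0631) and Flt4 without Unop 1 (adjusted p = 0.051). Between the PNAs the 95% intervals were -0.087 to 0.71 for Flt1 and -0.079 to 1.00 for Flt4, and neither was called. Against Unop nerves, PEG-fused PNAs were not called for Flt1 (-0.44, SE 0.19, adjusted p = 0.0815) or Flt4 (-0.68, SE 0.26, adjusted p = 0.0542). They were called lower for Flt1 with a replicate block and without PEG 3 (adjusted p = 0.0139 and 0.0311). For Flt4 they were called lower by DESeq2, with the 2 groups alone, with a replicate block and without Unop 2 (adjusted p = 0.0298, 0.0368, 0.0115 and 0.0396).

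Of 12 tested markers of endothelium, 2 (Eng and Sox17) were higher in PEG-fused than in NC PNAs (15.0% of all tested genes). None was called lower (13.9%). Against Unop nerves, 1 was higher and 5 lower in PEG-fused PNAs (29.1% and 28.6% of all tested genes). In NC PNAs, 9 markers were lower (32.3% of all tested genes). Their summed normalized read count was 25384 to 30538 in PEG-fused PNAs, 19489 to 26108 in NC PNAs and 32943 to 36304 in Unop nerves, with Cldn5 at 0 in every library. Of 5 markers of lymphatic endothelium, 3 (Lyve1, Pdpn and Reln) were higher in PEG-fused than in NC PNAs. Prox1 and Ccl21 had negative log2 fold changes and were not called (-0.45 and -1.42, adjusted p = 0.647 and 0.392). Ccl21, which is part of the sum below, stood at 20.4, 8.41 and 295 in PEG-fused PNAs and 113, 49.5 and 197 in NC PNAs. In Unop nerves it stood at 15435 and 5393. Prox1, the defining factor, stood at 3.71, 14.0 and 16.9 in PEG-fused PNAs, 25.0, 5.38 and 18.3 in NC PNAs and 92.3 and 63.8 in Unop nerves. The sum of the 5 was 10854 to 13420.1 in PEG-fused PNAs, 6347 to 6910.3 in NC PNAs and 17820.5 to 27145 in Unop nerves. In PNAs this sum was carried by Reln, Pdpn and Lyve1 (means 5841, 4206 and 2282 in PEG-fused PNAs and 2403, 3032 and 1102 in NC PNAs). Prox1 and Ccl21 added little there. Of the 5 markers, 1, Pdpn, was higher than in Unop nerves in both kinds of PNA, while 2 were lower in PEG-fused PNAs and 4 in NC PNAs. The part of these markers in the receptor values was not tested.

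Of 17 other tested genes of VEGF signalling and vessel growth, 1 was higher and 2 lower in PEG-fused than in NC PNAs, with a median of 0.17. The only DEG was Egln3, a prolyl hydroxylase that marks HIF for decay and is itself induced by low oxygen (-1.99, SE 0.19, adjusted p = 0.000624). Its normalized read count was 152 ± 31.9 in PEG-fused PNAs, 606 ± 97.0 in NC PNAs (SD, n = 3 each) and 783 ± 137 in Unop nerves (n = 2). Hif1a, the oxygen-regulated subunit of the hypoxia-inducible factor HIF-1, was lower in PEG-fused than in NC PNAs (-0.46, adjusted p = 0.021), and Epas1, its endothelial relative, was higher (0.93, adjusted p = 0.00102). These are the whole of that count, and Hif1a and Epas1 were named after their values were seen, as were Spry2, Spred3, Dusp6, Etv5, Spry1, Plat against Unop nerves and Grb2. Against Unop nerves, 6 of the 17 were higher and 5 lower in PEG-fused PNAs, and 6 were higher and 3 lower in NC PNAs. Of all tested genes, 15.0% were higher and 13.9% lower between the PNAs. The shares against Unop nerves were 29.1% and 28.6% in PEG-fused PNAs and 32.2% and 32.3% in NC PNAs.

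In the IGF system no gene was called lower in PEG-fused than in NC PNAs, and the 5 higher genes were Igf2r and 4 of the 6 tested binding proteins. Igfbp5, a binding protein of the matrix that smooth muscle, bone and Schwann cells are known to make, had normalized read counts of 35295, 42223 and 49678 in PEG-fused PNAs, 20303, 13059.9 and 15000.3 in NC PNAs and 22397 and 14279.7 in Unop nerves. All PEG-fused PNAs lay above the other 5 libraries, and NC PNAs and Unop nerves overlapped. Igfbp5 was 2.63-fold higher by the means in PEG-fused than in NC PNAs (42399 ± 7193 against 16121 ± 3749, SD, n = 3 each), a log2 fold change of 1.41, SE 0.23, adjusted p = 0.00332. Against Unop nerves the log2 fold change was 1.23, SE 0.25, adjusted p = 0.00324 in PEG-fused PNAs, and NC PNAs were not called different (95% interval -0.75 to 0.40). The call between the PNAs held in every alternative tried.

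Igfbp6, which prefers IGF2 over IGF1, was far lower in PNAs than in Unop nerves. Its normalized read counts were 9657, 12713 and 13862 in PEG-fused PNAs, 6054, 5748 and 7049.6 in NC PNAs and 87664 and 53409 in Unop nerves. The groups did not overlap, and means were 5.84-fold higher in Unop nerves than in PEG-fused PNAs and 11.2-fold higher than in NC PNAs (-2.52, SE 0.23, adjusted p = 3.95e-05, and -3.45, SE 0.23, adjusted p = 5.08e-06). PEG-fused PNAs were above NC PNAs (0.93, SE 0.20, adjusted p = 0.0118). Igfbp7, which binds IGFs weakly and is made by vessel walls, had normalized read counts of 24010.0, 23807 and 22597 in PEG-fused PNAs, 14496, 14777 and 13576 in NC PNAs and 36188 and 22545 in Unop nerves. NC PNAs were below all other libraries (0.72, SE 0.16, adjusted p = 0.0133 for PEG-fused over NC PNAs, -1.001, SE 0.18, adjusted p = 0.00142 for NC PNAs over Unop nerves), and PEG-fused PNAs overlapped Unop nerves. Without Unop 1 the value of NC PNAs over Unop nerves was -0.66 (adjusted p = 0.0028).

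Igfbp3, the main carrier of IGFs in blood, had normalized read counts of 5378, 4554 and 6026 in PEG-fused PNAs, 2945, 3629.7 and 3680.1 in NC PNAs and 2233 and 1871 in Unop nerves. The 3 groups followed each other without overlap, and PEG-fused over NC PNAs gave 0.64, SE 0.14, adjusted p = 0.0106. Log2 fold changes were 1.37, SE 0.15, adjusted p = 0.000118 for PEG-fused PNAs and 0.73, SE 0.15, adjusted p = 0.00291 for NC PNAs over Unop nerves. Igfbp4, which inhibits IGF action until it is cleaved by pappalysin, had normalized read counts of 21453, 21301 and 19430.3 in PEG-fused PNAs, 12288, 19573 and 17567 in NC PNAs and 13598 and 9272 in Unop nerves. PEG 3 lay just below NC 2, and the PNAs were not called different (0.36, SE 0.20, adjusted p = 0.208). PEG-fused PNAs were higher than Unop nerves (0.88, SE 0.22, adjusted p = 0.00876), a call lost without Unop 2 (adjusted p = 0.0822). NC PNAs were not called against Unop nerves (0.53, SE 0.22, adjusted p = 0.0652), but were called higher by DESeq2, without NC 1 and without Unop 1 (adjusted p = 0.0337, 0.0095 and 0.0299).

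Igfbp2, a binding protein of embryonic and glial tissue, was low throughout, at 36.1, 19.6 and 60.0 in PEG-fused PNAs, 21.4, 22.6 and 43.4 in NC PNAs and 6.44 and 10.01 in Unop nerves. Every PNA lay above both Unop nerves, and the log2 fold change was 1.99, SE 0.52, adjusted p = 0.0106 in PEG-fused PNAs and 1.66, SE 0.52, adjusted p = 0.0214 in NC PNAs. The PNAs were not called different (95% interval -0.74 to 1.40). Both calls against Unop nerves were lost without Unop 1 (adjusted p = 0.074 and 0.121), and that of NC PNAs also without NC 3 (adjusted p = 0.0653). Igfbp1, the binding protein of liver, was not tested, with normalized read counts of 0, 0 and 0 in PEG-fused PNAs, 0.894, 1.08 and 0 in NC PNAs and 2.15 and 1.25 in Unop nerves.

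**Figure D4:**
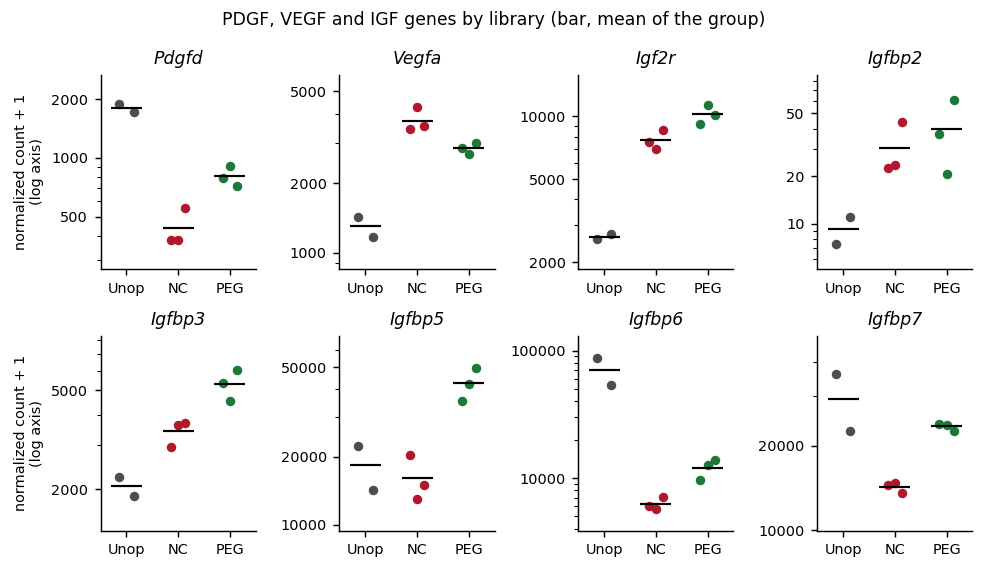
Normalized read count + 1 (y axis, log scale) of Pdgfd, Vegfa, Igf2r and 5 IGF binding proteins in each library, grouped as Unop nerves, NC PNAs and PEG-fused PNAs (x axis), with a bar at the mean of each group. Igfbp5 was highest in the 3 PEG-fused PNAs, Igfbp6 and Pdgfd were highest in the 2 Unop nerves, and Vegfa was highest in the 3 NC PNAs.

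Igf1, the ligand that supports regrowing axons and muscle, had normalized read counts of 5629, 4319 and 5784 in PEG-fused PNAs, 3762, 2907 and 4729.7 in NC PNAs and 3208 and 1919.9 in Unop nerves. PEG-fused PNAs were above Unop nerves (1.07, SE 0.26, adjusted p = 0.00794). The call was lost at 0.70 without Unop 2 (adjusted p = 0.0759). The PNAs were not called different (95% interval -0.056 to 1.02), except with a replicate block (adjusted p = 0.0279). NC PNAs were not called against Unop nerves (0.59, SE 0.26, adjusted p = 0.0792), except with a replicate block, without NC 2 and without Unop 1 (adjusted p = 0.0233, 0.0308 and 0.0238). Igf2, the ligand of fetal growth, which is also expressed in muscle and connective tissue, had normalized read counts of 1541, 885 and 2966 in PEG-fused PNAs, 4958, 605 and 3302 in NC PNAs and 2483 and 1607 in Unop nerves. NC 2 was the lowest and NC 1 the highest of all 8 libraries, so the interval between the PNAs was wide (-2.15 to 1.29).

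Igf2r, the mannose 6-phosphate receptor that removes IGF2 and sorts enzymes to lysosomes, had normalized read counts of 9197, 11352 and 10108 in PEG-fused PNAs, 7556, 6961 and 8569 in NC PNAs and 2580.0 and 2722 in Unop nerves. It rose above Unop nerves by 1.94 on the log2 scale in PEG-fused PNAs and by 1.53 in NC PNAs (adjusted p = 6.4e-06 and 1.3e-05), and the 3 groups did not overlap. The difference between the PNAs was small (0.41, SE 0.11, adjusted p = 0.0253), and its call was lost without PEG 2, PEG 3, NC 1 or NC 2 (adjusted p = 0.0931, 0.071, 0.0548 and 0.0733). Igf1r, the signalling receptor of both ligands, had normalized read counts of 178, 159.9 and 147 in PEG-fused PNAs, 147, 144 and 185 in NC PNAs and 148 and 178 in Unop nerves, a range shared by all groups. No comparison was called for Igf1r, and the 95% intervals were -0.36 to 0.43 between the PNAs, -0.45 to 0.43 for PEG-fused PNAs and -0.48 to 0.40 for NC PNAs against Unop nerves.

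Of 13 other tested genes of IGF signalling, 4 were higher in PEG-fused than in NC PNAs, none was called lower and none was a DEG, with a median log2 fold change of 0.13. The 4 included the insulin receptor Insr (0.71, adjusted p = 0.0226) and the mRNA-binding protein Igf2bp2 (0.93, adjusted p = 0.00124). The others were the protease Htra1, known to cleave binding proteins (0.62, adjusted p = 0.00748), and the kinase Akt1 (0.33, adjusted p = 0.0248), named here as the whole of that count. Against Unop nerves, 3 were higher and 3 lower in PEG-fused PNAs, and 3 were higher and 5 lower in NC PNAs. Over all tested genes, 15.0% were higher and 13.9% lower between the PNAs. Those against Unop nerves were 29.1% and 28.6% in PEG-fused PNAs and 32.2% and 32.3% in NC PNAs.

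Markers of skeletal muscle fibres differed among the NC PNAs and moved with a few members. The summed normalized read count of 7 such markers was 807992 in NC 1, 13180.4 in NC 2 and 293720.0 in NC 3, against 3117 to 19098 in PEG-fused PNAs and 7162 to 41977 in Unop nerves. Of the 7, Mylpf alone was called lower in PEG-fused than in NC PNAs (13.9% of all tested genes), and none was called against Unop nerves. Fgf13, Fgfr4 and Igf2 were each highest in NC 1 and next highest in NC 3. The part of muscle in their values was not tested.

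**Figure D5:**
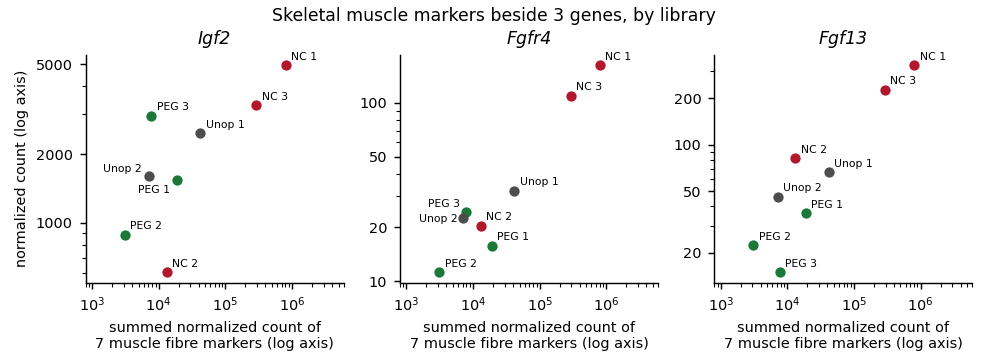
Normalized read count (y axis, log scale) of Igf2, Fgfr4 and Fgf13 against the summed normalized read count of 7 markers of skeletal muscle fibres (x axis, log scale), 1 labelled point per library. NC 1 and NC 3 lie far to the right and high in all 3 panels, while NC 2 lies among the PEG-fused PNAs and Unop nerves on the x axis.

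With NC 1 and NC 3 left out together, which was chosen after their muscle markers were seen, NC 2 was the sole NC PNA and was assumed to vary like the other groups. Then 7 members were called higher and 1 lower in PEG-fused PNAs, and all of them but Fgf2 (1.88, adjusted p = 0.017) were also called from all libraries. The 1 lower member was Vegfa (-0.59, adjusted p = 0.0351). Fgfr4 was at -0.31, adjusted p = 0.718, and Igf2 turned to 1.40, adjusted p = 0.153. Fgf13 was at -1.78, adjusted p = 0.0597, and Fgf23 (-4.25, adjusted p = 0.0728), Fgf5 (1.18, adjusted p = 0.219) and Fgf12 (0.60, adjusted p = 0.229) also kept their direction and lost their call. So did Pdgfra (0.22, adjusted p = 0.202), Pdgfrb (0.53, adjusted p = 0.0598), Vegfb (0.52, adjusted p = 0.0654) and Kdr (-0.63, adjusted p = 0.114). Among the binding proteins, Igfbp3 (0.54, adjusted p = 0.0833), Igfbp6 (1.05, adjusted p = 0.0606) and Igfbp7 (0.67, adjusted p = 0.118) kept their direction and lost their call. In NC PNAs against Unop nerves, Fgf13 was at 0.55, adjusted p = 0.434.

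Markers of other cell types also differed between the groups, and their part in the values above was not tested. Over all tested genes, 15.0% were higher and 13.9% lower in PEG-fused than in NC PNAs. Between PEG-fused and NC PNAs, 3 of 9 Schwann cell markers and 2 of 10 cell cycle genes were higher. Lower were 8 of 10 macrophage markers, 7 of 7 T cell markers, 3 of 5 neutrophil markers and 5 of 8 adipocyte markers, while none of 5 perineurium and 2 red blood cell markers was called. Against Unop nerves, all tested genes gave 29.1% higher and 28.6% lower in PEG-fused PNAs and 32.2% and 32.3% in NC PNAs. There, 7 Schwann cell markers were lower in PEG-fused PNAs and 8 in NC PNAs, with 1 (Ngfr) higher in both. All 5 perineurium, 8 adipocyte and 2 red blood cell markers were lower and all 10 cell cycle genes and 7 T cell markers were higher in both kinds of PNA, and macrophage markers were higher in 9 and in 10. Neutrophil markers were higher in 2 and lower in 1 in PEG-fused PNAs and higher in 3 and lower in 1 in NC PNAs. Summed Schwann cell markers, led by myelin genes, were 74672 to 82768 in PEG-fused PNAs, 24949 to 73654 in NC PNAs and 2152500.0 to 2573480.0 in Unop nerves. Perineurium markers summed to 6622 to 7379 in PEG-fused PNAs, 4372 to 6984 in NC PNAs and 80359 to 92394 in Unop nerves. Macrophage markers summed to 268762 to 343680.0 in PEG-fused PNAs, 584549 to 805487 in NC PNAs and 32134 to 50023 in Unop nerves. T cell markers summed to 1751 to 4961 in PEG-fused PNAs, 20210.0 to 37933 in NC PNAs and 206 to 394 in Unop nerves.

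Some members share their place in the genome with another protein-coding gene, namely Fgf13 (LOC120099243), Igf2 (LOC102548568), Fgf1 (Arhgap26), Fgf2 (Nudt6), Fgf7 (Fam227b), Fgf14 (Itgbl1), Fgf17 (Npm2), Pdgfd (Ddi1), Igf1r (Pgpep1l) and Igfbp7 (Polr2b) in GRCr8. The library kit keeps the strand of the RNA, and whether the counting used it was not given in the sources used here, so reads of these pairs may have been assigned to either gene or to neither.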

How the data were processed

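Per the labels, RNA of whole nerve segments was made into poly-A libraries with a TruSeq stranded kit and read in pairs on a HiSeq. The authors checked reads with FastQC, aligned them with TopHat2 to the rat genome Rnor 6.0, obtained counts per gene by HTSeq-count and normalized them by the size factors of DESeq2. What they deposited is this signal, normalized counts per gene, with no correction for gene length, so that levels are not compared between genes. The strand setting of the counting and most versions were not given in the sources used here. The table also holds the authors' comparisons (log2 fold change, its error, Wald score, p and adjusted p), which were not used.

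Every value was a whole multiple of a step per library (100% within 0.001), which returned the reads: between 32472925 and 39959620 per library, with size factors from 0.80 to 1.12. Libraries were grouped by their titles. Genes with a normalized read count of 10 or more in 2 or more of the 8 libraries were tested on log2(value + 1) in a single limma fit with trend over all libraries, with Benjamini-Hochberg adjustment over the 16478 genes. Intervals are 95%, and counting intervals and the floor of 3 reads cover counting error only. PEG and NC groups have 3 rats each and the Unop group 2, so errors rest on few animals. The model was tested on simulated data.

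The members and gene lists were chosen with earlier results of these data known. Values in every sample are given for members called between PEG-fused and NC PNAs, for all receptors, for binding proteins and for ligands called against Unop nerves with a log2 fold change over 2 in size, Igf1 and Igf2 were added after their values were seen, and other genes of the systems are named where they are DEGs or where this is said. Symbols of the lists that were not matched, and so are missing from the counts and sums, were Pecam1 (endothelium), Foxd3 (Schwann cells) and Trac (T cells). Others were Myh1, Myh4 and Atp2a1 (muscle fibres), Hba1 and Hba2 (red blood cells), and Klb, Figf, Pappa and H19 (growth factor systems).

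Alternatives were edgeR and DESeq2 on the recovered reads, scaling by TMM factors, no filter or a minimum of 50, a pseudocount of 8, the 2 compared groups alone, a replicate block, a fold change limit and leaving out each library. Leaving out NC 1 and NC 3 together was added after the data were seen. Sequences came from RefSeq (GRCr8), whose build differs from that of the counts. Tools were R 4.3.3, limma 3.58.1, edgeR 4.0.16, DESeq2 1.42.0, Python 3.11.15, pandas 2.3.3, NumPy 2.4.6, SciPy 1.17.1 and matplotlib 3.10.9.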

Additional observations from a re-analysis of the deposited data

Results flagged for a closer look

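Fgf13, which encodes an intracellular partner of voltage-gated sodium channels, was the member in which the PNAs lay on opposite sides of the Unop nerves. Every PEG-fused PNA was below both Unop nerves and every NC PNA was above them. The difference between PEG-fused and NC PNAs was -2.94 on the log2 scale (adjusted p = 0.0051, limma). Against Unop nerves, PEG-fused PNAs were not called (adjusted p = 0.104). The call of NC PNAs (adjusted p = 0.0311) was lost when any of several libraries was left out. Fgf13 was highest in NC 1 and NC 3, in which markers of skeletal muscle fibres were high. The share of all tested genes with this pattern was not counted.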

How the results depend on the processing

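No call among the members turned its direction under any alternative. Apart from the limit on fold change, 5 of 18 members called between PEG-fused and NC PNAs were called in every alternative that could test them. So were 16 of 27 for PEG-fused PNAs and 22 of 27 for NC PNAs against Unop nerves. With a log2 fold change over 1 required, 4 members were higher and 2 lower in PEG-fused than in NC PNAs, and with NC 1 and NC 3 left out 7 were higher and 1 lower. Leaving out each library in turn gave 9 to 14 higher (14 from all libraries, 9 without PEG 3) and 2 to 4 lower (4 from all libraries, 2 without PEG 2 or PEG 3). Against Unop nerves it gave 7 to 13 higher (7 without Unop 2) and 10 to 15 lower in PEG-fused PNAs, and 7 to 11 higher and 17 to 18 lower in NC PNAs. Over all genes, limma called 4763 between the PNAs, edgeR 4977 and DESeq2 5540. TMM factors moved the median of all genes by at most 0.018 on the log2 scale.

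Of the members not called, 8 of 25 between the PNAs, 6 of 16 in PEG-fused PNAs and 8 of 16 in NC PNAs against Unop nerves were called in at least 1 alternative. Members that were not called turned their sign when a single library was left out, between PEG-fused and NC PNAs in Fgf22 (-0.0066 to 0.20), Fgf10 (-1.33 to 0.0074), Fgf18 (-0.38 to 0.19), Fgfr3 (-0.28 to 0.020), Pdgfc (-0.11 to 0.31), Vegfd (-0.059 to 0.54), Igf2 (-1.34 to 0.17), Igf1r (-0.038 to 0.15) and Igfbp2 (-0.049 to 0.73), for PEG-fused PNAs against Unop nerves in Fgf21 (-1.15 to 0.072), Pdgfc (-0.64 to 0.050), Igf2 (-0.77 to 0.10), Igf1r (-0.14 to 0.12) and Igfbp7 (-0.63 to 0.058), and for NC PNAs against Unop nerves in Fgf11 (-0.086 to 0.47), Fgf16 (-0.061 to 0.55), Pdgfb (-0.067 to 0.25), Igf2 (-0.50 to 1.02), Igf1r (-0.17 to 0.089) and Igfbp5 (-0.50 to 0.15), given as the lowest and highest log2 fold change. The sign also turned for Igf1r in PEG-fused PNAs against Unop nerves with edgeR (0.0094) and TMM factors (0.0097), for Igf2 between the PNAs with NC 1 and NC 3 left out (1.40), and, in NC PNAs against Unop nerves, with these left out, for Fgf11 (-0.12), Fgfr4 (-0.38), Pdgfb (-0.014) and Igf2 (-1.72), and with a replicate block for Fgf16 (-0.047) and Igf2 (-0.27). Apart from library and sample choices, the cause was not tested.

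Pairing by the numbers in the titles was not established: deviations from the group means of same-numbered PEG-fused and NC PNAs correlated at 0.11, 0.11 and -0.050 for numbers 1 to 3, and those with Unop nerves, which share only 2 numbers, at 0.15 and 0.14 for PEG-fused PNAs and 0.15 and 0.16 for NC PNAs. With a replicate block, 15 members were higher and 5 lower between the PNAs, 13 and 15 in PEG-fused PNAs and 11 and 19 in NC PNAs against Unop nerves.

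Low counts limit Fgf4, Fgf14, Fgf23 and Fgf2, and 5 members were too low to test. With 2 Unop nerves and 3 PNAs a kind, the calls of small differences such as those of Vegfa, Kdr, Pdgfra and Igf2r were lost when any of several libraries was left out, at similar fold changes. With a minimum of 50 normalized counts, 39 members were tested.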
